A study of Mus musculus with 18 samples.

Results

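The set described here holds 45 genes of the non-fibrillar extracellular matrix and of matrix assembly, chosen by symbol from the 35734 genes in the authors' deposited table of mouse fibroblasts. Of these, 16 encode elastic fibre and microfibril proteins, 5 the lysyl oxidases that cross-link the matrix, 10 basement membrane proteins, 6 matricellular proteins, and 8 fibronectin, network and fibril-associated collagens and versican. The fibroblasts were mouse embryonic fibroblasts of a C57BL/6 line that carries R26-M2rtTA, a transactivator that switches on doxycycline-inducible lentiviral genes. All 6 RNA libraries came from cells given Brn2 (gene symbol Pou3f2) and Myt1l, factors used to turn fibroblasts into neurons, 48 h after doxycycline. In 3 libraries these were the only added factors, and in the other 3 libraries Ikzf1 and Ikzf4 had been added as well. Ikzf1 and Ikzf4 are zinc finger factors of the Ikaros family, which act as temporal identity factors in retinal progenitors. Polyadenylated RNA was sequenced to between 34966344 and 44270426 estimated reads per library. No label says that the 3 libraries of a group came from separate cultures, so the p-values measure only the spread between these samples, which may be technical. The retina was covered by 2 single-nucleus chromatin libraries, 1 control and 1 with Ikzf1 and Ikzf4. The control came from a retina sample labelled as Müller glia, the radial glia of the retina, of a C57BL/6 GLAST-CRE ERT2 ; RosaYFP line, with mCherry in place of the factors. In this line tamoxifen switches on Cre in cells that express the glial transporter GLAST. For both retinal libraries the labels name tamoxifen together with 14 days and the run names in the file headers say 48 h, and neither says from what the time is counted. The labels of the Ikzf1/4 library give no tissue or line beyond its title.

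Elastic fibres form when tropoelastin assembles on a scaffold of fibrillin microfibrils, with fibulins guiding the deposition and lysyl oxidases forming the cross-links. Basement membranes are sheets of laminin and type IV collagen networks joined by nidogens and perlecan. Matricellular proteins such as thrombospondins, tenascins and periostin have little structural part and instead modulate how cells attach to and signal with the matrix. Fibroblasts are a main source of fibronectin, collagens and microfibrils.

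Of the 45 genes, 28 passed an adjusted p of 0.05 in the authors' deposited table, which is 62.2% of the set, beside 30.6% of the 16757 genes tested. Among them 21 fell, beside a background of 15.4% of all genes, and 7 rose, beside a background of 15.3%, in the authors' deposited table. In these terms 46.7% of the set fell and 15.6% rose. The remaining 17 did not pass. Members were chosen with earlier results of these data known, so shares beside the background are descriptive, here and below. The median log2 fold change of the set in the authors' deposited table was -0.15, beside -0.00 over all genes tested. Most of the set is abundant, and abundant genes pass more often: among the 7152 genes with a mean normalised count of at least 1000 in the authors' deposited table, 40.5% passed, 20.8% falling and 19.7% rising. In that range 23 of 38 members passed, 17 falling and 6 rising, in the authors' deposited table. This range was chosen after seeing the data. Sizes were moderate, with 12 called members beyond 0.5 on the log2 scale, beside 10.2% of all genes, and 3 beyond 1, beside 361 of the 16757 genes tested, in the authors' deposited table. Added Ikzf1 and Ikzf4 stood at log2 fold changes of 7.76 and 8.54 in the authors' deposited table, higher where the labels say they were added. Of the factors given to both groups, Myt1l was also higher with Ikzf1 and Ikzf4 (log2 0.50, SE 0.17, adjusted p 0.0157) and Pou3f2 stood at -0.05 (SE 0.08, adjusted p 0.689) in the authors' deposited table. What part the Myt1l difference had in the matrix genes was not tested.

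**Figure D1:**
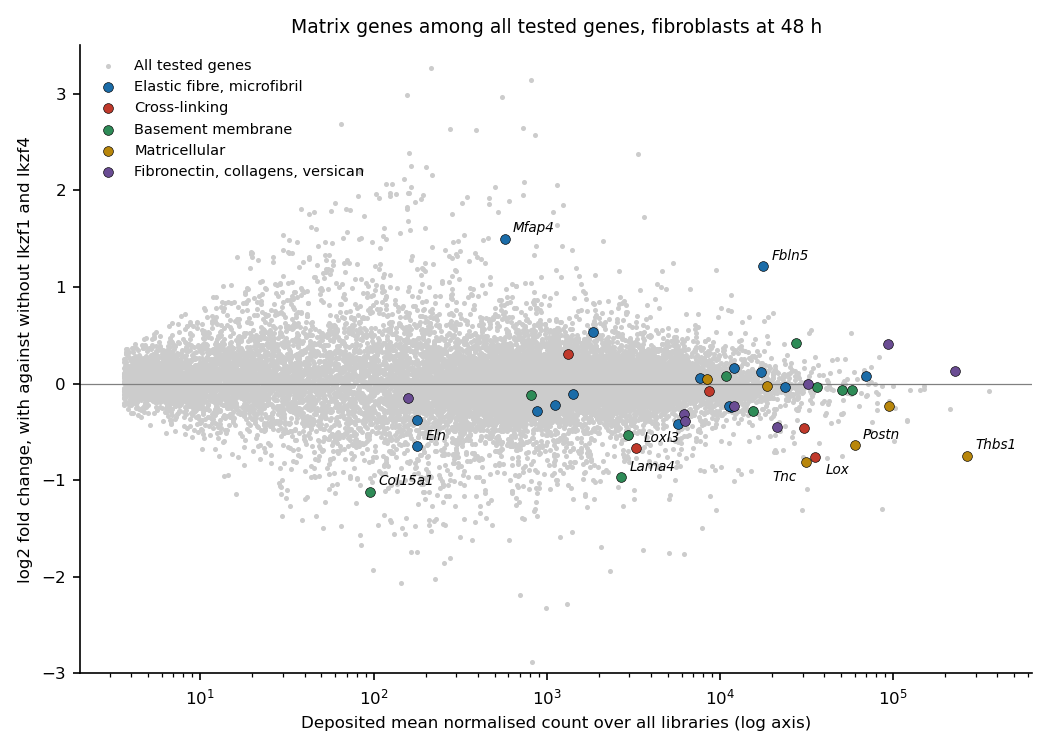
The authors' log2 fold change (with against without Ikzf1 and Ikzf4) against their mean normalised count on a log axis, for all 16757 genes tested (grey) and the 45 matrix genes (coloured by role). Ikzf1 and Ikzf4 themselves, at 7.76 and 8.54, lie beyond the upper edge. Mfap4 and Fbln5 stand above the other matrix genes, and Col15a1, Lama4, Tnc, Lox and Thbs1 lie lowest.

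To show the DNA just upstream of genes that moved, 4 promoter stretches of 250 bases are printed from RefSeq (GRCm38.p6), ending at the base before the first listed transcript start. RefSeq promoters matched 30 of the 45 genes by symbol. The stretch lay outside the annotated span of its own gene for 14 of them, of which 9 were called. From these 9 the pair that fell most and the pair that rose most are given, which leaves out larger changes elsewhere in the set. Each sequence is written from 5′ to 3′ on the gene's strand, and capitals mark the letters TGGGAA or their reverse complement, a core that Ikaros zinc fingers are known to bind. Tnc lies at chr4:64047016-64047265 on the minus strand, Postn at chr3:54359017-54359266 on the plus strand, Loxl4 at chr19:42612807-42613056 on the minus strand and Fbln5 at chr12:101819120-101819369 on the minus strand.
Tnc: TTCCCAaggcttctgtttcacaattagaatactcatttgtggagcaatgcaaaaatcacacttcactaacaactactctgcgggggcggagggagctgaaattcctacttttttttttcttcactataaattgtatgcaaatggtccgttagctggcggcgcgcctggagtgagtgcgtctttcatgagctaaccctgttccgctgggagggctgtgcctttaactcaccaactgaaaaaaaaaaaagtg
Postn: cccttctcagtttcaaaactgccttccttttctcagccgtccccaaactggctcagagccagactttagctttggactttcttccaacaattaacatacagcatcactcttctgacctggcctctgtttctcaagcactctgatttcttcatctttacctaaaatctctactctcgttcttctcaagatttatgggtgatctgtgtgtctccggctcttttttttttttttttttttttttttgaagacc
Loxl4: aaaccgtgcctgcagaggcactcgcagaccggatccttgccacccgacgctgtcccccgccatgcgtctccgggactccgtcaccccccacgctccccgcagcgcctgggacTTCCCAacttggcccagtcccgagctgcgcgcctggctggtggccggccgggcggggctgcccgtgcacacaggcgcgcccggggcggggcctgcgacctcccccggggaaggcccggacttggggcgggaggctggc
Fbln5: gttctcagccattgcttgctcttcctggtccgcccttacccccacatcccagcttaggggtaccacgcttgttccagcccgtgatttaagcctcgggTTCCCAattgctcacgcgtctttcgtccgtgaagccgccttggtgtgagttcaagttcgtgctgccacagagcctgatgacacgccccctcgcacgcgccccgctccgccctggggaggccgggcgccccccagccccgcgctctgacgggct
The match began 250 bases before the start in Tnc, 138 in Loxl4 and 153 in Fbln5, and Postn had none in this stretch. Tnc also held the letters TATAAA. Of the 30 promoters, 11 held TGGGAA on either strand, beside 21.5% of all 27025 RefSeq promoters of this length. They were 3 of 5 members that rose, 5 of 13 that fell and 3 of 12 that were not called. The other motifs searched on both strands were TGANTCA in 3 of 30 promoters beside 6.87% of all, GGAATG in 2 beside 12.6%, TATAAA in 3 beside 13% and CAGGTG in 3 beside 17.1%. TGGGAA and GGAATG share letters and can overlap. The median GC content was 60% over the 30 promoters and 52% over all promoters. These matches describe letters only, since binding was not measured at them here.

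The elastic fibre and microfibril genes divided, with 4 of 16 higher, 6 lower and 6 not called in the authors' deposited table. These shares were 25% higher beside 15.3% of all genes and 37.5% lower beside 15.4%. The median log2 fold change of the group was -0.07. Mfap4, a glycoprotein that binds elastin and fibrillin, rose 2.83-fold, the largest rise of the 45 genes (log2 1.50, SE 0.14, adjusted p 2.58e-23 in the authors' deposited table). Fbln5, a fibulin needed to deposit elastin on microfibrils, rose 2.32-fold (log2 1.21, SE 0.08, adjusted p 1.98e-48 in the authors' deposited table). Ltbp4, which binds latent TGF-beta and works with fibulin-5 in elastic fibre assembly, rose 1.45-fold (log2 0.54, SE 0.08, adjusted p 2.39e-09 in the authors' deposited table). Efemp2, the fibulin that brings lysyl oxidase to elastin, rose by a smaller log2 0.16 (SE 0.04) in the authors' deposited table. Eln itself, which encodes tropoelastin, moved the other way in the authors' deposited table, 1.56-fold lower (log2 -0.65, SE 0.21, adjusted p 0.0108). It had a low mean normalised count of 178.5 in the authors' deposited table, against 17838.8 for Fbln5, though these counts are not per length. Emilin1, a glycoprotein at the border of elastin and microfibrils, fell by 0.42 on the log2 scale (SE 0.06) in the authors' deposited table. The latent TGF-beta binding proteins Ltbp2 and Ltbp3 fell by 0.25 and 0.23 on the log2 scale (SE 0.05 and 0.04) in the authors' deposited table. Fbln1 fell by 0.28 (SE 0.08) and the microfibril protein Mfap5 fell by 0.38 (SE 0.15) on that scale in the authors' deposited table. The DESeq2 adjusted p of Mfap5 was 0.0385, and 0.0568 when adjusted over every gene with a raw p.

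The microfibril backbone genes did not pass. Fbn1, the main fibrillin, stood at a log2 fold change of 0.12 with a 95% interval of -0.03 to 0.26 in the authors' deposited table. Fbn2, the fibrillin of early development, stood at -0.11 (-0.32 to 0.10) in the authors' deposited table. Fbln2, with the highest mean normalised count of this group (69855.7), stood at 0.08 (SE 0.05, adjusted p 0.204) in the authors' deposited table. Efemp1 at -0.04, Mfap2 at -0.22 and Ltbp1 at 0.05 completed the group in the authors' deposited table. The interval of Mfap2 (-0.42 to -0.01) lay on the negative side, with an adjusted p of 0.101.

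Among the 5 lysyl oxidases, the copper enzymes that start collagen and elastin cross-links, 3 fell, 1 rose and 1 did not pass in the authors' deposited table. These shares were 60% lower beside 15.4% of all genes and 20% higher beside 15.3%. Lox, with a mean normalised count of 35334.2 over all 6 libraries, fell 1.70-fold (log2 -0.76, SE 0.05, adjusted p 4.9e-49 in the authors' deposited table). Loxl3 was 1.59-fold lower (log2 -0.67, SE 0.07, adjusted p 1.07e-19 in the authors' deposited table). Loxl2, which also acts on basement membrane collagen IV, was 1.38-fold lower in the authors' deposited table (log2 -0.46, SE 0.05). Loxl4 rose 1.24-fold (log2 0.31, SE 0.07, adjusted p 0.000242 in the authors' deposited table). Loxl1, the family member that maintains elastic fibres in adult tissue, stood at -0.07 with an interval of -0.19 to 0.04 in the authors' deposited table.

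In the basement membrane group 4 of 10 genes fell (40% beside 15.4% of all genes) in the authors' deposited table. There 1 rose (10% beside 15.3%) and 5 did not pass. Col15a1, a collagen that links basement membranes to the underlying matrix, was 2.17-fold lower, the largest fall of the 45 genes (log2 -1.12, SE 0.22, adjusted p 4.38e-06 in the authors' deposited table). Its mean normalised count of 95.3 was also the lowest of the set in the authors' deposited table. Lama4, a laminin alpha chain of mesenchymal and vascular basement membranes, was 1.96-fold lower (log2 -0.97, SE 0.08, adjusted p 2.16e-33 in the authors' deposited table). Lamb1, a beta chain that joins it in laminin trimers, fell by 0.29 on the log2 scale (SE 0.05), while the gamma chain gene Lamc1 stood at 0.08 (-0.03 to 0.19) in the authors' deposited table. Nid2 was 1.44-fold lower (log2 -0.53, SE 0.08, adjusted p 1.17e-10) in the authors' deposited table, while the related linker Nid1 stood at -0.03 (-0.12 to 0.06). Hspg2, which encodes perlecan, rose 1.34-fold, with a wide error for its mean of 27402.3 (log2 0.42, SE 0.14, adjusted p 0.0112 in the authors' deposited table). Col4a1 and Col4a2, the chains of the ubiquitous type IV collagen trimer, both stood at -0.07 (SE 0.04; adjusted p 0.178 and 0.159) in the authors' deposited table. Col4a1 had the highest mean normalised count of the group, 57672.6, and Col18a1, another basement membrane collagen, stood at -0.12 (-0.29 to 0.06), in the authors' deposited table.

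Of the 6 matricellular genes 4 fell (66.7% beside 15.4% of all genes) and 2 did not pass in the authors' deposited table. There 0 rose, beside 15.3% of all genes (0 also at an unadjusted DESeq2 p under 0.05). Thbs1, an activator of latent TGF-beta and the gene with the highest mean normalised count of the 45 (268469 over all 6 libraries), fell 1.68-fold (log2 -0.74, SE 0.07, adjusted p 4.21e-22 in the authors' deposited table). Tnc, a tenascin of developing and healing tissue, fell 1.76-fold (log2 -0.81, SE 0.05, adjusted p 4.31e-52 in the authors' deposited table). Postn, a periostin that aids collagen assembly, fell 1.55-fold (log2 -0.63, SE 0.08, adjusted p 3e-13 in the authors' deposited table). Sparc, a collagen-binding glycoprotein, fell by 0.23 on the log2 scale (SE 0.06) in the authors' deposited table. Thbs2, another thrombospondin, stood at -0.02 (95% interval -0.20 to 0.16) in the authors' deposited table. Ecm1 stood at 0.05 (-0.05 to 0.15) in the authors' deposited table.

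Among fibronectin and the remaining collagens and versican, 4 of 8 genes fell, 1 rose and 3 did not pass in the authors' deposited table. These shares were 50% lower beside 15.4% of all genes and 12.5% higher beside 15.3%. The 3 chains of type VI collagen, a beaded filament network around cells, fell together: Col6a1 by 0.23, Col6a2 by 0.32 and Col6a3 by 0.39 on the log2 scale (SE 0.07, 0.08 and 0.07) in the authors' deposited table. Vcan, the large chondroitin sulphate proteoglycan versican, fell by 0.45 (SE 0.05) on that scale in the authors' deposited table. Col12a1, a collagen attached to the surface of fibrils, rose 1.33-fold (log2 0.41, SE 0.08, adjusted p 2.56e-06 in the authors' deposited table). Fn1, fibronectin and the highest-mean gene of this group at 228033, stood at 0.14 (95% interval -0.01 to 0.28, adjusted p 0.163) in the authors' deposited table. Col8a1 stood at -0.00 (-0.13 to 0.12), and the fibril-associated Col14a1 at -0.15 (-0.47 to 0.16), in the authors' deposited table.

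**Figure D2:**
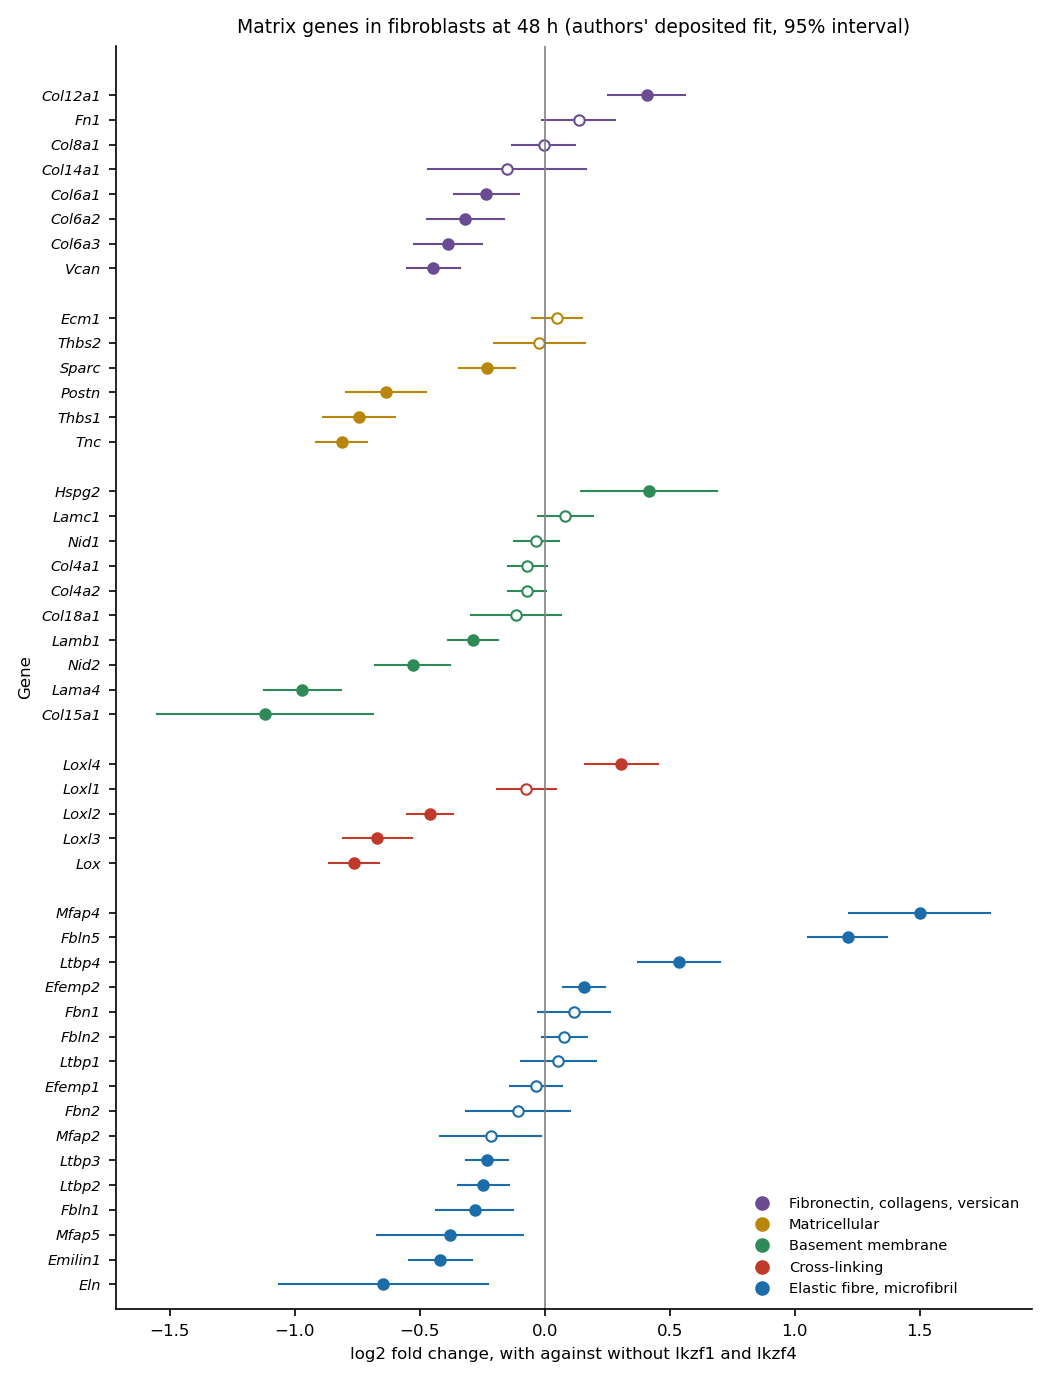
The authors' log2 fold change of each of the 45 matrix genes with against without Ikzf1 and Ikzf4 (x axis), with a 95% interval of 1.96 standard errors, grouped and coloured by role; filled points passed an adjusted p of 0.05. Lower genes reach from -1.12 (Col15a1), and Mfap4 (1.50) and Fbln5 (1.21) stand apart on the upper side.

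The fold changes rest on the authors' fit, and values of single libraries are not given here, because the sources used do not pair the quantified transcripts with genes. Standard errors were smaller at the lowest means than at middle ones (median 0.0494 below a mean of 2 and 0.172 between 100 and 200 in the authors' deposited table), so the deposited fold changes may have been shrunk and low genes may be understated.

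Other matrix genes, taken from 6 lists by role, were counted in the same way, and 41 of 95 tested passed (43.2% beside 30.6% of all genes) in the authors' deposited table. Of these 28 were lower, 29.5% beside 15.4%, and 13 higher, 13.7% beside 15.3%, in the authors' deposited table. These lists too were chosen with earlier results of these data known. The ranges that follow run over the called genes of each list. Matrix processing enzymes, their enhancers and chaperones leaned lower, 7 falling and 1 rising of 16. They ran from P4ha3, a prolyl hydroxylase of collagen, at -0.87 (SE 0.07) to Pcolce2, an enhancer of procollagen cleavage, at 0.55 (SE 0.10) in the authors' deposited table. Matrix receptors counted 8 falling and 2 rising of 20, from the collagen receptor subunit Itga1 at -0.80 (SE 0.08) to the laminin receptor subunit Itga3 at 0.26 (SE 0.06) in the authors' deposited table. Other matricellular genes counted 5 falling and 3 rising of 15, from Ccn2, a target gene of mechanical signalling, at -1.09 (SE 0.08) to the tenascin Tnxb at 0.79 (SE 0.17) in the authors' deposited table. Other microfibril and elastic fibre genes, a list that also holds TGF-beta genes, counted 4 falling and 1 rising of 14. They ran from the matrilin Matn4 at -0.74 (SE 0.23) to Emilin2 at 0.43 (SE 0.11) in the authors' deposited table. Other basement membrane genes counted 3 falling (16.7%) and 4 rising (22.2%) of 18, from Egflam at -1.14 (SE 0.23) to Npnt, an integrin ligand, at 2.37 (SE 0.08) in the authors' deposited table. Other collagens and hyaluronan-linked genes counted 1 falling and 2 rising of 12, from Col16a1 at -0.18 (SE 0.06) to Hapln1, a hyaluronan link protein, at 2.07 (SE 0.22) in the authors' deposited table. The rises of Npnt and Hapln1 thus exceeded that of every one of the 45 genes in the authors' deposited table.

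**Figure D3:**
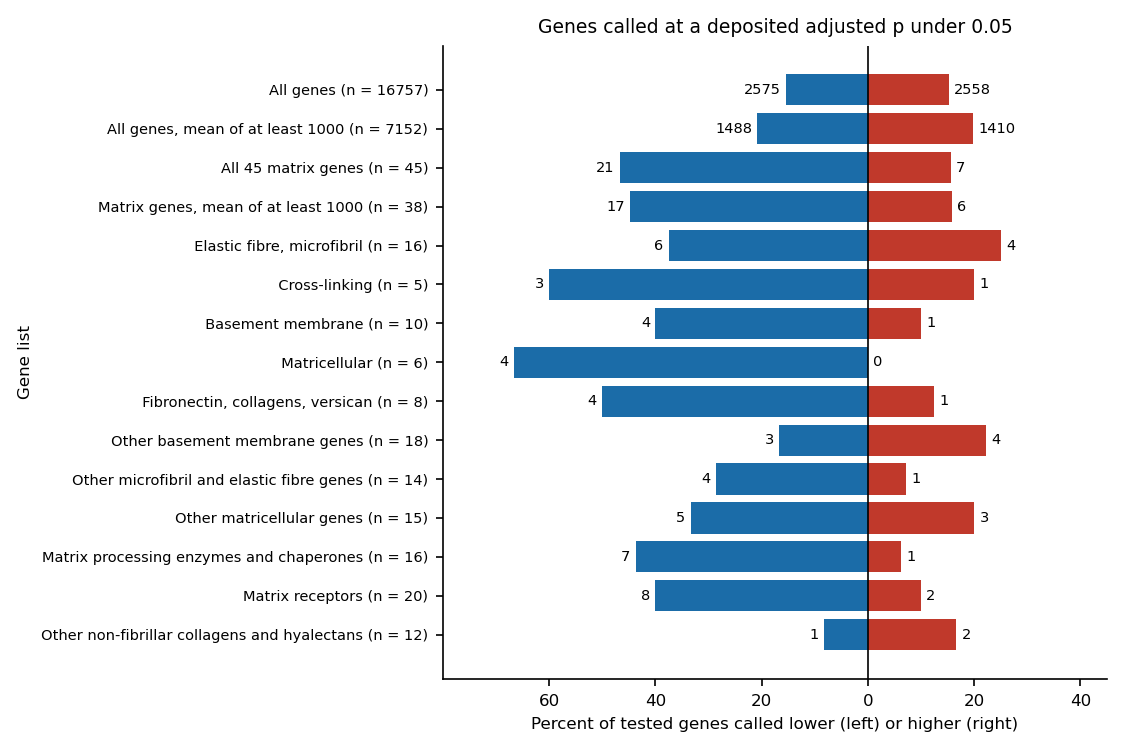
Percent of tested genes that passed an adjusted p of 0.05 lower (left, blue) or higher (right, red), with their numbers at the bar ends, for all genes, the 45 genes, their 5 role groups and the other matrix lists. Lower calls outnumber higher ones in each of the 5 role groups, and 21 of 45 genes fell against 7 that rose.

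The labelled cell type was checked with marker lists. Fibroblast markers were abundant, with a summed mean normalised count of 363975, and 4 of 5 fell in the authors' deposited table. This is 80% beside 15.4% of all genes, and 20.8% of genes with a mean of at least 1000. Col1a1 and Col1a2 fell by 0.38, Thy1 by 0.53 and Vim by 0.59 on the log2 scale. The remaining marker, Pdgfra, stood at 0.03 (SE 0.12, adjusted p 0.908) in the authors' deposited table. Macrophage markers were present at a summed mean of 5737 with 0 of 5 called by DESeq2 (1 at an unadjusted p under 0.05) in the authors' deposited table. Endothelial markers were present there at 295 with 0 of 4 called (0 unadjusted). Both counts stand beside 30.6% of all genes called. Pericyte markers summed to 3404 with Rgs5 alone called, at -0.62 (25% of the list beside 30.6%), in the authors' deposited table. Skeletal muscle markers summed to 83.9 and epithelial markers to 50.5 in the authors' deposited table. Of the 2 epithelial markers tested Epcam rose, by 0.64 (50% beside 15.3% of all genes). Of the neuronal markers Tubb3 fell by 0.42 on the log2 scale (SE 0.10, adjusted p 0.00033), while Map2 stood at 0.06 and Syn1 at -0.14, in the authors' deposited table. Among retinal cell markers Pou4f1 rose by 1.03 (adjusted p 4.12e-06) and Sox9 by 0.37 (adjusted p 0.0168), and Opn1sw fell by 0.50 (adjusted p 0.0422), on the log2 scale of the authors' deposited table. The part of these marker shifts in the falls of matrix genes was not tested. In bulk RNA fewer cells of a type and less RNA per cell cannot be told apart.

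The retinal libraries measured open chromatin by transposase insertion in single nuclei, together with RNA that is not used here. With 1 library per group no test could be made, and the intervals cover counting error only. After filters 1879 nuclei of the control (median 6248 fragments) and 683 of the Ikzf1/4 library (median 10882) were kept, and 3 cell barcodes occurred in both. For each gene, fragments over the gene and 2 kb on both sides were summed over nuclei and scaled to 1000000 fragments of the kept nuclei, here called the scaled count.

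Scaled counts per kb of window were low at the matrix genes in both libraries. The median scaled count per kb was 0.40 in the control over the 45 genes, beside 0.91 over 17589 gene windows. Mfap2 (3.81), Emilin1 (3.79) and Loxl3 (2.42) had the densest windows, and Loxl2 (0.12), Lama4 (0.16) and Vcan (0.18) the sparsest, as scaled counts per kb of the control. Short windows hold more of the flanks, where neighbouring genes can lie. The windows of Mfap2, Emilin1 and Loxl3 were 9.55, 11.9 and 22.4 kb long, and those of Loxl2, Lama4 and Vcan 91.1, 148.7 and 91.7 kb. The background was not matched by window length, so the part of length in these densities was not tested.

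In the Ikzf1/4 library 13 of the 45 windows were more than 1.25-fold lower than in the control, which is 28.9% beside 13.9% of all gene windows. A single one, Loxl4, was more than 1.25-fold higher, which is 2.22% beside 15.8%. That count was 3 (Thbs2 at 1.63, Mfap2 at 1.48, Loxl4 at 1.30) with at least 10000 fragments per nucleus, beside 18.6% of all windows. It was also 3 (Ecm1 at 2.22, Loxl4 at 1.46, Mfap4 at 1.35) over the gene body alone, beside 19.5%. The median ratio was 0.94 over the 45 genes and 1.06 over all windows. In the other matrix lists the share of windows lower past this fold ran from 12.5% (processing enzymes and chaperones) to 33.3% (other basement membrane genes). Their share higher past it ran from 0% (other microfibril and elastic fibre genes) to 35% (matrix receptors). A lower share of this size was thus not particular to the 45 genes. The background was not matched by window length or density here either. Fragments at Postn numbered 118 in the control and 32 with Ikzf1/4, and the scaled counts had a ratio of 0.42 (95% interval 0.27 to 0.62). Lox had 69 and 21 fragments, a ratio of 0.47 (0.27 to 0.78). Col6a3 had 354 and 108 fragments, a ratio of 0.47 (0.38 to 0.59). These were the lowest ratios of the set. Efemp1 followed at 0.54 (0.44 to 0.68), with Col14a1 at 0.62 (0.53 to 0.72) and Vcan at 0.62 (0.48 to 0.80). The other windows past this fold were Loxl2 at 0.71, Sparc at 0.71, Col15a1 at 0.72, Fn1 at 0.74, Eln at 0.75, Nid2 at 0.79 and Col12a1 at 0.79. Loxl4 had 170 and 175 fragments, a ratio of 1.59 (1.28 to 1.98). With at least 10000 fragments per nucleus its interval included 1 (0.97 to 1.74). At its promoter, the printed stretch and the bases just after the start, it had 30 and 20 fragments, a ratio of 1.03 (0.55 to 1.88). Promoters held few fragments, with a median of 18 in the control and 9 with Ikzf1/4 over 30 members.

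By role, 5 of 8 windows of the fibronectin, collagen and versican group were past this fold on the lower side. The cross-linking group had 2 of 5, the matricellular group 2 of 6, the basement membrane group 2 of 10 and the elastic fibre group 2 of 16. Beside the 13.9% of all windows, these shares were 62.5%, 40%, 33.3%, 20% and 12.5%, so the elastic fibre group lay near the background. Windows of Fbln5 (0.998, interval 0.85 to 1.17), Mfap4 (1.03, interval 0.79 to 1.33) and Ltbp4 (1.06, interval 0.93 to 1.20) had intervals that included 1. Likewise Tnc stood at 0.94, Thbs1 at 0.88 and Lama4 at 0.87, with intervals that included 1. Of the 45 intervals, 16 lay below 1, beside 14.1% of all windows, 5 lay above it, beside 32.3%, and 24 included it. Col4a1 at 1.15 (1.05 to 1.27) lay above 1, and its window overlaps that of the adjoining Col4a2, at 1.06 (0.97 to 1.16).

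Over all barcodes rather than nuclei that passed the filters, 2 windows, Lox (0.72) and Nid2 (0.79), were lower past 1.25-fold in place of 13, beside 9.63% of all windows. Postn moved to 0.84, Efemp1 to 0.87 and Col14a1 to 0.94. Loxl2 (0.82), Vcan (0.82), Col12a1 (0.91), Fn1 (0.93), Col15a1 (0.95) and Eln (0.97) also came within the fold. There the ratios of Sparc (1.03) and Col6a3 (1.01) turned above 1 and that of Loxl4 (0.97) below it, and Col6a2 (1.31) was the only one of the 45 windows higher past the fold, beside 11.7% of all windows. Windows of marker genes also differed between the libraries. All 4 rod markers had ratios from 1.48 (Pde6b) to 2.88 (Nrl), and the bipolar cell markers Prkca (1.50) and Otx2 (1.71), with Grm6 between them, had intervals above 1. Of the Müller glia markers 3 of 4 Müller glia markers lay below 1 with their intervals (Slc1a3 at 0.71, Glul at 0.80, Rlbp1 at 0.84), Sox9 being at 0.93. Endothelial markers stood at 0.62 (Kdr) to 0.89 (Tek) and pericyte markers at 0.57 (Rgs5) to 0.85 (Cspg4). Macrophage and microglia markers stood at 0.53 (P2ry12) to 0.93 (Adgre1), with the intervals of P2ry12 and Ptprc (0.82) below 1. Cone markers stood at 0.62 (Opn1sw) to 0.89 (Gnat2), and amacrine and ganglion cell markers at 0.79 (Rbpms) to 1.19 (Tfap2a). Neuronal markers stood at 0.89 (Syn1) to 1.55 (Tubb3). Fibroblast markers stood at 0.86 to 1.03 with intervals that included 1. The part of these marker differences in the matrix windows was not tested.

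**Figure D4:**
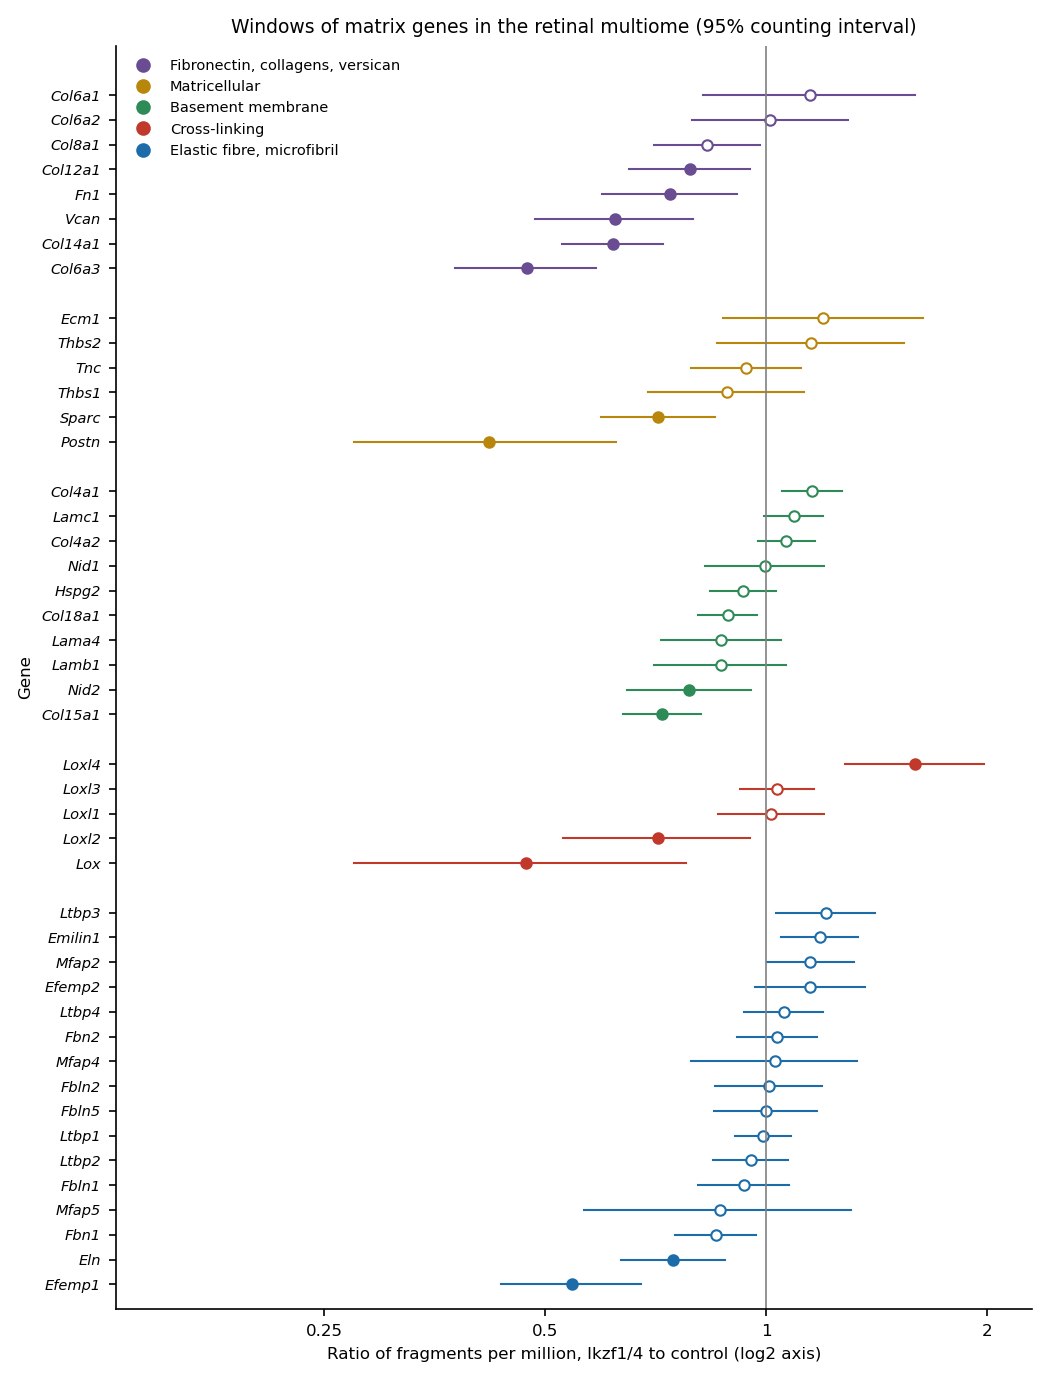
Ratio of scaled counts, fragments per 1000000 (Ikzf1/4 library to control, log2 axis), in the window of each of the 45 matrix genes, with exact 95% counting intervals, grouped by role; filled points are past 1.25-fold. The ratios run from 0.42 (Postn) to 1.59 (Loxl4), and 13 of the 14 filled points lie below 1.

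Set side by side, the 21 genes that fell in fibroblast RNA had 9 windows past 1.25-fold lower in the retina, 0 higher and 12 within it. Of those 12, Ltbp3 (1.20, interval 1.03 to 1.41) and Emilin1 (1.18, interval 1.05 to 1.33) lay above 1 with their intervals. The intervals of the rest included 1. Over all 2425 genes that fell and had a counted window, 12.2% of windows were past this fold lower and 16.1% higher, so the 9 of 21 are 42.9% beside 12.2%. Over all barcodes the 9 windows became 2 of the 21, Lox and Nid2, beside 9.63% of all windows lower in that setting. That count lay near the background. The 7 that rose had 1 window higher (Loxl4), 1 lower (Col12a1) and 5 within, beside 14.8% higher and 10.3% lower over all 2406 genes that rose. The 17 genes not called had 3 lower windows (Efemp1, Col14a1 and Fn1) and 14 within, beside 10.4% lower over all 9798 such genes. Loxl4 was called higher in fibroblast RNA, and its retinal window in the filtered nuclei was past the fold on the higher side. Lox, Loxl2, Postn, Sparc, Col6a3, Vcan, Nid2, Col15a1 and Eln were called lower in fibroblast RNA. Their retinal windows in the filtered nuclei were past the fold on the lower side. Over all barcodes Lox and Nid2 alone of these stayed past the fold, and Loxl2, Postn and Vcan stayed below 1 with their intervals. Mfap4 and Fbln5, with the largest rises in fibroblasts, had retinal windows near a ratio of 1. The libraries differ in tissue and assay, and no test joins them.

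**Figure D5:**
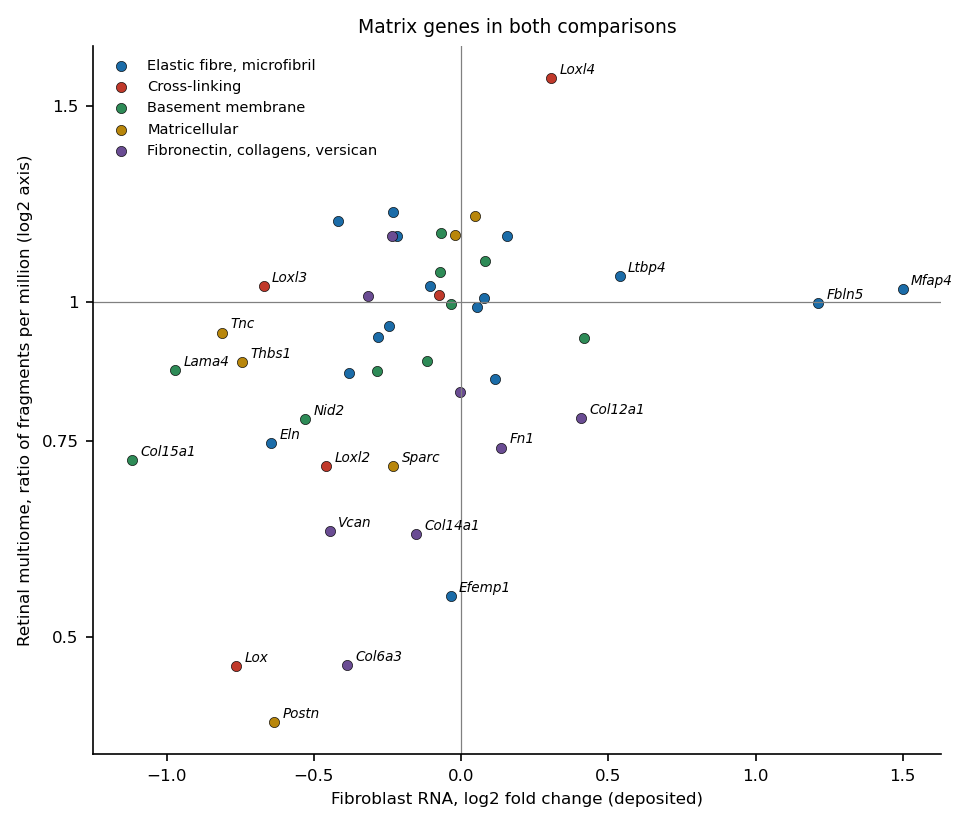
The authors' log2 fold change in fibroblast RNA (x axis) against the ratio of scaled retinal window counts (y axis, Ikzf1/4 to control, log2 spaced) for the 45 matrix genes, coloured by role. Lox, Postn and Col6a3 lie low on both axes, and Mfap4 and Fbln5 lie to the right at a window ratio near 1.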

How the data were processed

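The members and all lists were chosen with earlier results of these data known. Per the submitters' processing notes the authors used Salmon and DESeq2. The deposited Salmon files hold estimated counts per transcript and were used here for depth alone. The authors' deposited table gives per gene a mean normalised count (a signal over all libraries), log2 fold changes, their standard errors, the Wald score, and the raw and adjusted p-value by DESeq2. Calls are an adjusted p under 0.05, and intervals are 1.96 standard errors. The planned gene fit from single libraries could not be run. The deposited fragment files count read pairs per fragment and were made by cellranger-arc 2.0.1 on mm10, per the file headers. Here each fragment was counted once. Nuclei were barcodes with at least 3000 fragments, an enrichment at gene ends of at least 4 and below the 99th percentile of fragments, with no doublet caller. Windows needed 50 fragments. Ratios of scaled counts have exact conditional binomial intervals. Named genes were all 45, with full statistics beyond a log2 fold change of 0.5 and for the highest mean of each role. From each other list the largest rise and fall among its called genes were named. Peak lists of the fibroblast chromatin libraries were not used here. Scripts in Python 3.11.15 with pandas 2.3.3 and SciPy 1.17.1 were tested on simulated data.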

Additional observations from a re-analysis of the deposited data

How the results depend on the processing

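Requiring an absolute log2 fold change over 0.5 as well left 12 of the 28 called genes, 3 higher and 9 lower, beside 10.2% of all genes. At an adjusted p of 0.01, 25 passed (Eln, Hspg2 and Mfap5 did not), beside 22.5% of all genes. With a mean of at least 100, 27 passed (Col15a1 lies below it), beside 37.5%, and with p-values adjusted over every gene with a raw p, 27 (without Mfap5), beside 19.3%. A mean of at least 1000, chosen after seeing the data, left 23, beside 40.5%. In the retina the fragments of all 45 windows together had a ratio of 0.944. It moved to 0.968 with at least 10000 fragments per nucleus, where Col18a1 turned to 1.05. Scaled to the fragments in gene windows it was 0.889, with 18.3% of all windows lower and 8.72% higher, and 14 members lower. Over all barcodes it was 0.986, with Col18a1 at 1.04, Sparc at 1.03, Col6a3 at 1.01 and Loxl4 at 0.968; the cause was not tested. The gene body alone gave 0.934. No paired analysis was possible because the sources used do not pair transcripts with genes, so no gene fit on single libraries was made. The edgeR fit on the Salmon estimates, its DESeq2 and filter alternatives and leaving out each library were not run for the same reason. Windows of Lox (21 fragments in the Ikzf1/4 library) and Postn (32) rest on few fragments.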
